A study of Mus musculus with 126 samples.

Results

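Transcripts of 39 mouse genes that copy DNA or supply that process were followed around the day in the colon. The genes were taken as a named list of replication and S-phase symbols, matched to the gene column of 7 expression tables with 24883 rows each. All 39 were found, and 38 of them were among the 11377 rows with a mean of at least 1 FPKM (mapped fragments per kilobase of transcript, relative to the size of the library) in at least 1 condition. The exception was Ccne2, a cyclin E gene, which averaged 0.586 FPKM over all libraries and was left out of the tests.

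RNA came from colons taken at 6 zeitgeber times (ZT, hours after lights on), every 4 hours from ZT0 to ZT20, with 3 libraries at each time and 126 libraries in all. A genotype set compared MR knock out mice, which lack the mineralocorticoid receptor, and Bmal1 knock out mice, which lack a core clock gene, with wild type mice, all with free access to normal chow. Per the series text, the knock outs were gut-specific and 8 to 12 weeks old. For this set the labels name no Cre driver, no sex and no age of the wild type mice. A feeding set used male C57BL/6 mice of 8 weeks in 4 groups: high salt day fed, low salt day fed, high salt night fed and low salt night fed. Food was offered to these 4 groups during a limited window, with lights on for 12 h and off for 12 h, and the labels name no feeding hours. The labels do not say that each replicate is a separate animal, and p-values measure the spread between these samples.

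S phase is the part of the cell cycle in which a cell copies its genome. In the G1 phase before it, CDC6 and CDT1 load the MCM helicase onto replication origins. Cyclin E and the E2F transcription factors then switch on a set of genes that includes the helicase, the DNA polymerases, the sliding clamp PCNA, the enzymes that make deoxynucleotides and the factors that pack new DNA into chromatin. In the colon nearly all such division takes place in the lower crypt, among stem cells and their transit-amplifying daughters, and the food intake cycle and the clock are both known to influence when gut cells divide.

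Sequences 5′ of 4 of the genes are printed here because E2F proteins act through short sites near the start of many S-phase genes. The 250 bases before each gene's start are from RefSeq on build GRCm38.p6, read along the gene's strand, with matches to TTTCCCGC, TTTGGCGC or TTTCGCGC on either strand in capitals. Mcm5 lies at chr8:75109259-75109508 (+ strand), Mcm6 at chr1:128359706-128359955 (- strand), Pola1 at chrX:93632156-93632405 (- strand) and Tk1 at chr11:117826015-117826264 (- strand).
Mcm5: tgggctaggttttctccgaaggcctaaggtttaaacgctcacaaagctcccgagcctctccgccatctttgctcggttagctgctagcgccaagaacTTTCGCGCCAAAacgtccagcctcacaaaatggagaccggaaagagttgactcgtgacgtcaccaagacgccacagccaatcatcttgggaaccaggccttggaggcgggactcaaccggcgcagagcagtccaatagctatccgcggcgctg
Mcm6: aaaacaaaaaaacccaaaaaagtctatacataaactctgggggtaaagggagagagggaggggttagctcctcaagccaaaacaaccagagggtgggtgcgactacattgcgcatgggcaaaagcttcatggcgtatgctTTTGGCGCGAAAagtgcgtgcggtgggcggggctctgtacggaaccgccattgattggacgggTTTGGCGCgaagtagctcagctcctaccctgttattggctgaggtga
Pola1: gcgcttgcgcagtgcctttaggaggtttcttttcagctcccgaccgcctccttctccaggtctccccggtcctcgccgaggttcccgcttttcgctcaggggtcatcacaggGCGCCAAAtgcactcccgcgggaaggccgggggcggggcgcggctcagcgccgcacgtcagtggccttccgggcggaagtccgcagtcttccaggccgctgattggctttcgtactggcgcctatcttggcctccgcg
Tk1: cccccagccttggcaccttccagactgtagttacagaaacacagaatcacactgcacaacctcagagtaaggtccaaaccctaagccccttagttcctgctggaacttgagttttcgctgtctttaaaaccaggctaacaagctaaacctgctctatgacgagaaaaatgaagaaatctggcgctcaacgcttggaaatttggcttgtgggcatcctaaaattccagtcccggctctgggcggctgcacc
Mcm5 and Mcm6 each hold 1 site in which 2 motifs overlap on opposite strands, Mcm6 holds a separate single motif nearer its start, Pola1 holds a single site on the opposite strand, and Tk1 holds none of these letters in this window. RefSeq promoters of 300 bases (250 before and 50 after the start) were matched for 32 of the 39 genes. Any of the 3 E2F-type motifs stood in 13 of 32 (40.6%), namely Cdc6, Cdt1, Dtl, Gins3, Lig1, Mcm3, Mcm5, Mcm6, Mcm7, Pola1, Pold1, Rfc3 and Uhrf1. The share among all 27025 genes in the table was 2.12%. The CCAAT box (CCAAT) was found in 56.2% of the matched members and in 41.1% of all genes, and the E-box (CACGTG), the sequence that BMAL1 dimers bind, in 15.6% and 8.09%. A match of letters is a description and not a measured binding site.

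Epithelial markers stood far above those of other cells. All 11 colon epithelium markers passed the filter, from 100.5 FPKM (Cdx2) to 3161 FPKM (Car1) on average. Markers of other cells passed in 1 of 6 for smooth muscle (Tagln, 1.49 FPKM), 1 of 5 for fibroblasts (Dcn, 0.573 FPKM), 1 of 6 for B and plasma cells (Jchain, 0.651 FPKM), 4 of 5 for T cells (Cd3g highest, 3.31 FPKM), 3 of 3 for leukocytes in general (Cd52 highest, 6.06 FPKM) and 0 of 3 for endothelium, while the smooth muscle myosin Myh11 averaged 0.0147 FPKM. Tagln was rhythmic in Bmal1 knock out (amplitude 0.68). Library sums of FPKM ran from 158029 to 660895, so values were rescaled by a factor per library, from the median ratio of genes to their mean. A low factor (under 0.6) was found in 14 libraries, 9 of them Bmal1 knock out and 5 high salt night fed, and the median share of ribosomal RNA in these was 1.72%, against 0.148% in the other 112. Libraries also differed in how their values followed transcript length. This slope averaged 0.02 in MR knock out, -0.34 in Bmal1 knock out and 0.57 in wild type, where a higher value means relatively more signal from long transcripts. Counts and named values that change with the low-factor libraries or with this slope are given with the alternative beside them or in the closing part.

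Among the 38 genes, mean levels per kilobase spanned 1.22 FPKM for Cdc6 to 58.3 FPKM for Pcna. Rfc2, a subunit of the clamp loader, averaged 33.3 FPKM, Mcm6 20.7 FPKM, Tk1 (thymidine kinase) 19.4 FPKM and Mcm7 18.8 FPKM. Gins3, part of the active helicase, at 1.28 FPKM and Pole, the catalytic subunit of leading-strand polymerase epsilon, at 1.57 FPKM were at the low end beside Cdc6. None of the 39 genes was at 0 in any library. Ccne2 ranged from 0.0893 to 1.46 FPKM, and its condition means lay between 0.446 ± 0.265 FPKM (SD, n = 18) in low salt day fed and 0.742 ± 0.319 FPKM in wild type colon.

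In wild type colon the S-phase genes rose and fell together once a day, with a low near the end of the light phase and a high late in the dark phase. A gene is called rhythmic here when a limma F test of a 24 h wave over the 6 time means had an adjusted p under 0.05. By that rule 34 of 38 members were rhythmic, where 17.7% of all tested genes were. Time means were highest at ZT20 for 32 of the 39 genes and lowest at ZT12 for 31, and the median ratio of the highest to the lowest time mean was 2.1, from 1.4 to 3.22. The median amplitude (log2 distance from mean to peak) was 0.45, against 0.14 over all genes. Since each library pools RNA from many cells, fewer cells in S phase and less RNA per cell cannot be told apart.

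The helicase genes had 12 of 13 members rhythmic. Mcm5, a subunit of the helicase ring, stood at 15.0, 14.0 and 14.4 FPKM at ZT20 and at 5.98, 6.24 and 6.12 FPKM at ZT12. All 3 libraries at ZT20 were over 2 times those at ZT12, and the fitted wave had an amplitude of 0.59 ± 0.07 (SE) and a peak at ZT21.2 (limma adjusted p = 6.41e-07). Cdc6, the helicase loader, had 1.96, 1.82 and 1.93 FPKM at ZT20 and 0.659, 0.649 and 0.725 FPKM at ZT12, with a peak at ZT20.6. Cdt1, its partner in loading, peaked at ZT21.3, Cdc45, which joins the helicase as it starts, at ZT22.4, and Mcm3 had the largest amplitude of all members at 0.68 ± 0.08. Gins2, a subunit of the GINS complex in the active helicase, peaked later, at ZT0.604 ± 0.59 h. Gins1 was the member of this role that did not pass (amplitude 0.31 ± 0.10, limma adjusted p = 0.0616).

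The polymerase, clamp and loader genes also had 12 of 13 members rhythmic. Pcna, the sliding clamp, read 77.1, 69.7 and 68.0 FPKM at ZT20 and 41.0, 41.5 and 44.4 FPKM at ZT12, and peaked at ZT20.9. The libraries of these times did not overlap for Pcna. Pola1, the catalytic subunit of the primase-bound polymerase alpha, had an amplitude of 0.62 ± 0.11 and Pole one of 0.51 ± 0.08. Rfc3, a clamp loader subunit, was nearer flat at 0.23 ± 0.06. Lig1, which joins Okazaki fragments, peaked at ZT23.9. Rfc2 was not called (amplitude 0.14 ± 0.12, limma adjusted p = 0.707), and 1 library at ZT8 read 42.1 FPKM beside 18.5 and 21.8 FPKM.

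Among genes of S-phase entry, Ccne1, the other cyclin E gene, peaked at ZT20.5, E2f1, an activating E2F, at ZT21.2 and Dtl, part of the ubiquitin ligase that removes CDT1 in S phase, at ZT21.4. All 3 were rhythmic, with amplitudes of 0.42 to 0.65. In nucleotide supply, Rrm2, the regulated subunit of ribonucleotide reductase, had 11.3, 10.4 and 9.78 FPKM at ZT20 and 5.05, 5.84 and 4.72 FPKM at ZT12. Tk1 had the latest peak of the 34, at ZT1.86 ± 0.46 h. Tyms, thymidylate synthase (limma adjusted p = 0.146), and Dut, which clears dUTP (limma adjusted p = 0.139), did not pass. The chromatin genes were all rhythmic within a narrow band. Uhrf1, which carries DNA methylation to new strands, Chaf1a and Chaf1b, subunits of the CAF-1 histone chaperone, and Slbp, which binds histone mRNA, peaked between ZT21.5 and ZT22.0. Slbp had a smaller amplitude (0.23 ± 0.05) than Uhrf1 (0.62 ± 0.07).

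The 34 peaks averaged ZT22.0, with an SD of 1.32 h around that mean, and ran from ZT19.9 to ZT1.86. Mcm2 was earliest at ZT19.9 ± 0.41 h, followed by Mcm4 at ZT20.2, Ccne1 at ZT20.5 and Cdc6 and Mcm3 at ZT20.6. Prim2 (primase) and Lig1 at ZT23.9, Rfc5 at ZT0.121, Gins2 at ZT0.604 and Tk1 at ZT1.86 closed the order. Neighbours in this order differ by less than their standard errors, which run from 0.35 to 1.02 h for the rhythmic members, apart from the gap before Tk1. Over the 18 wild type libraries the median Pearson correlation of log2 values among the 703 gene pairs was 0.77, with 99.4% positive. These pairs share libraries and the scale factor, and the members are therefore not separate lines of evidence for a common time. Chaf1a followed the others most closely and Rfc2 least.

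**Figure D1:**
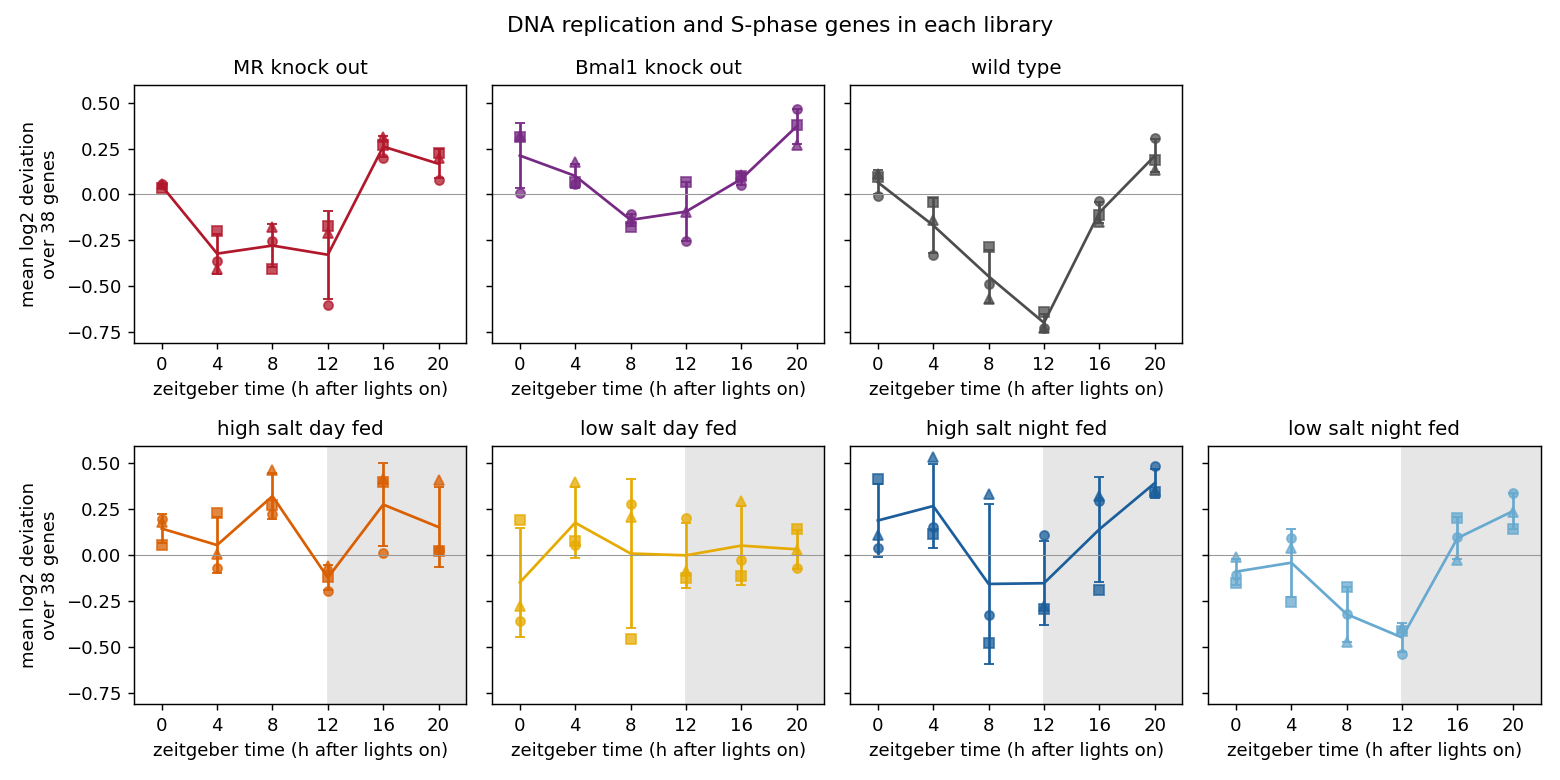
Mean log2 deviation of the 38 tested members in each library (y axis, log2 units relative to the gene's mean over all libraries) against zeitgeber time (x axis, h), with 1 panel per condition, symbols for replicates 1 to 3 and a line for the mean ± SD. MR knock out libraries reach 0.26 at ZT16, wild type libraries fall to a mean of -0.70 at ZT12 and reach 0.21 at ZT20, and the day fed groups have no common low at ZT12 of that depth.

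Genes of related function outside the list, taken from lists chosen with earlier results of these data known, had similar clock times. Of 36 tested replication genes not among the members, 21 were rhythmic in wild type with a mean peak at ZT22.2, and of 24 other E2F target genes, 20 were, with a mean at ZT22.8. All 25 mitosis and G2 genes were rhythmic, with a mean peak at ZT3.96, 5.96 h after the members. Core clock genes passed in 14 of 15.

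**Figure D2:**
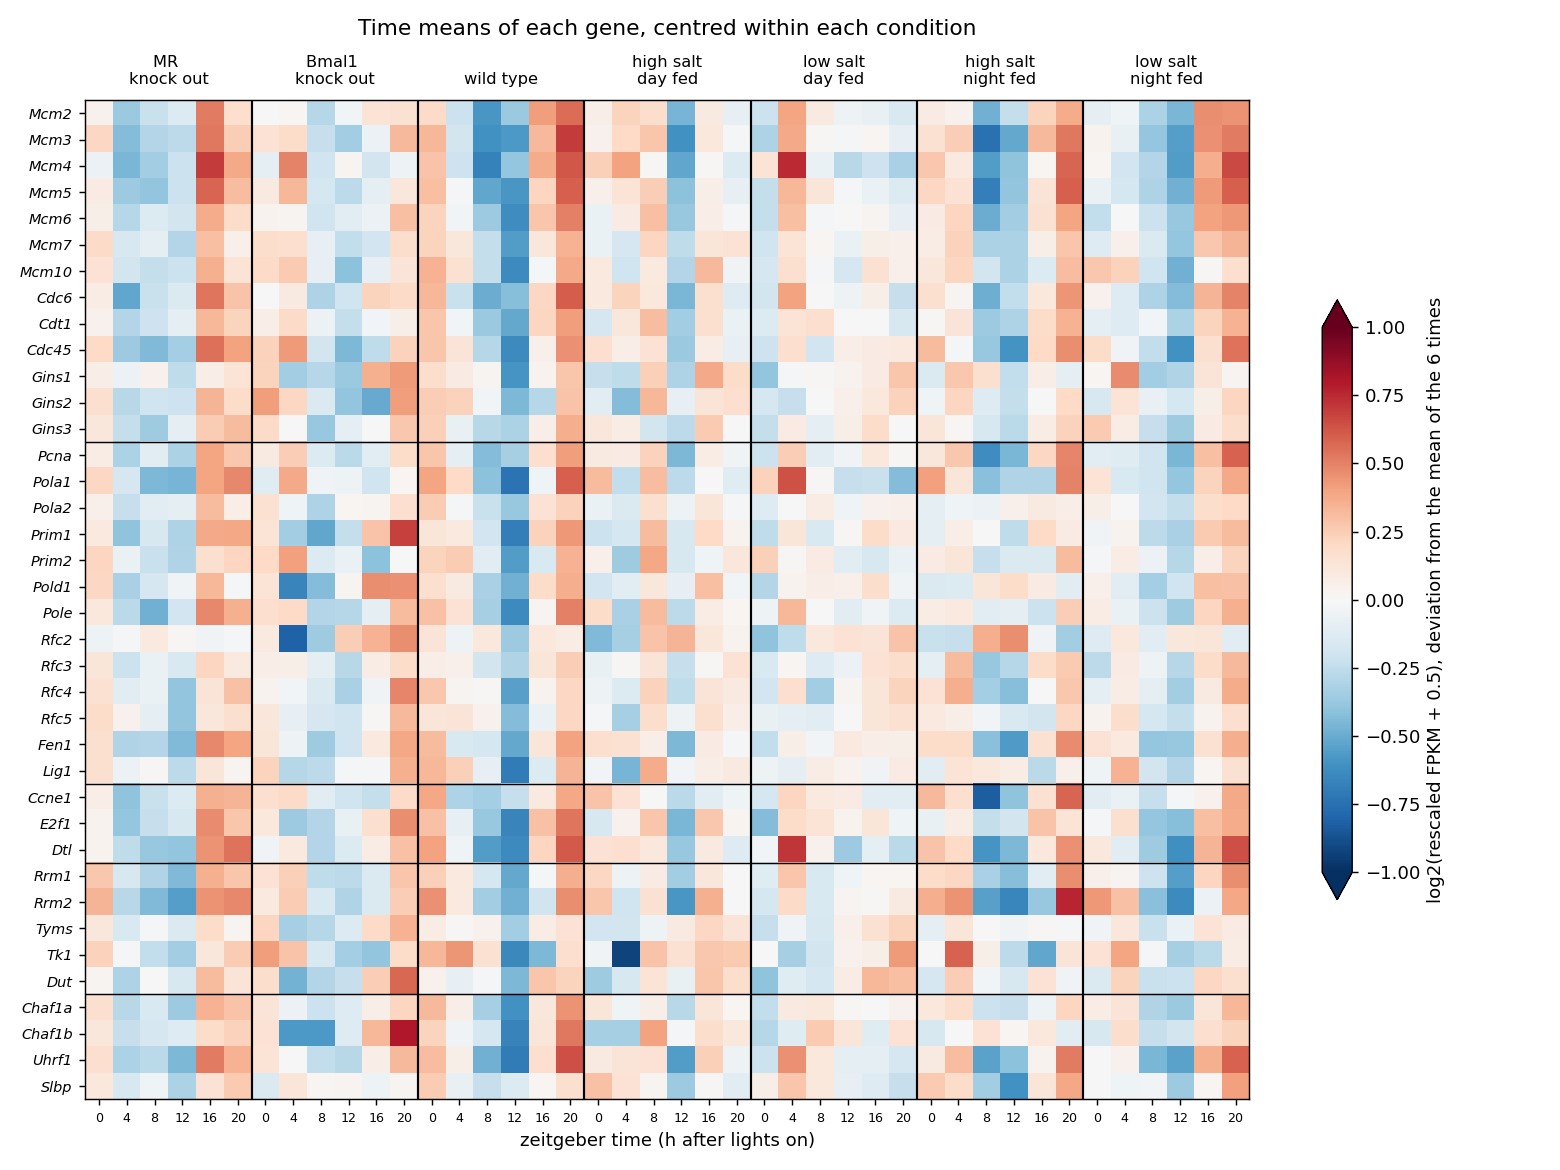
Log2 level of each of the 38 tested members (rows, grouped by role) at each of 6 zeitgeber times in each of 7 conditions (columns), as the mean of 3 libraries minus the gene's mean in that condition. The low at ZT8 and ZT12 and the high at ZT20 run through nearly all rows in wild type, and through fewer rows in the day fed conditions.

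In MR knock out colon the estimated peaks of S-phase genes were earlier than in wild type colon and most estimated amplitudes were lower, while the test of the rhythm difference passed for 6 of 38 members. The peak was at ZT19.3 on average in MR knock out, against ZT22.0 in wild type, and all 31 members that were rhythmic in both genotypes had an earlier estimated peak in MR knock out (median shift -2.38 h, from -5.53 h for Gins2 to -0.87 h for Slbp). In MR knock out 31 of 38 members were rhythmic, where 21.7% of all genes were. The median amplitude was 0.32 in MR knock out and 0.45 in wild type, and the estimate was lower in MR knock out for 34 of 38 members. Over all genes the median amplitude was 0.17 in MR knock out and 0.14 in wild type. How many of all genes had an earlier peak or a lower amplitude in MR knock out was not computed. The 6 members whose rhythm differed (limma F test, adjusted over all genes, background 0.835%) were Mcm6, Cdc45, Gins2, Lig1, E2f1 and Tk1, and 25 members had an unadjusted p under 0.05. For this and all other counts at an unadjusted p, the share of all genes was not computed, so these counts have no background to be read against.

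The mean over members shows where in the day the genotypes part. At ZT16 it stood at 0.20, 0.27 and 0.31 in the 3 MR knock out libraries, against -0.04, -0.11 and -0.15 in wild type libraries (log2 units). At ZT12 it was -0.60, -0.17 and -0.21 in MR knock out, against -0.73, -0.64 and -0.73 in wild type. The genotypes did not overlap at either time, and 1 MR knock out library at ZT12, replicate 1, lay close to the wild type ones. At ZT4 the order was the other way, with a mean of -0.32 in MR knock out and -0.17 in wild type, and there the libraries overlapped. Time means were highest at ZT16 in MR knock out for 24 of 39 genes.

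E2f1 had 3.68, 3.93 and 4.16 FPKM at ZT16 in MR knock out libraries, against 2.78, 2.60 and 2.62 FPKM in wild type libraries. At ZT12 E2f1 stood at 2.0, 2.37 and 2.72 FPKM in MR knock out, against 1.08, 1.21 and 1.13 FPKM in wild type. Every MR knock out library was above every wild type library at both times, while at ZT20 (3.44, 4.08 and 2.68 FPKM in MR knock out, 3.76, 3.04 and 2.97 FPKM in wild type) they overlapped. The fitted peak was at ZT18.1 in MR knock out and ZT21.2 in wild type, a shift of -3.09 ± 0.75 h (limma adjusted p = 0.0399). Cdc45 read 5.49, 5.58 and 5.44 FPKM at ZT16 in MR knock out, against 3.14, 3.55 and 3.09 FPKM in wild type, again with no overlap. Its peak shifted by -3.21 ± 0.61 h (adjusted p = 0.00969), with an amplitude of 0.53 in MR knock out and 0.48 in wild type, so Cdc45 was the called member without a smaller swing.

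Gins2 had the longest shift, -5.53 ± 0.94 h (limma adjusted p = 0.00444). It read 8.52, 11.2 and 11.3 FPKM at ZT16 in MR knock out, against 5.08, 5.66 and 5.45 FPKM in wild type, and at ZT4 5.67, 7.63 and 6.46 FPKM in MR knock out, against 7.79, 8.16 and 7.85 FPKM in wild type. The order of the genotypes thus turned round between these times, with no overlap at either. Tk1 read 16.2, 20.2 and 23.5 FPKM at ZT16 in MR knock out, against 9.37, 10.8 and 10.7 FPKM in wild type, and moved by -4.19 ± 0.91 h (adjusted p = 0.00705). Tk1 remained late relative to the other members in MR knock out, at ZT21.7. Mcm6 shifted by -2.86 ± 0.72 h with an amplitude of 0.28 in MR knock out and 0.50 in wild type (adjusted p = 0.0052).

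Lig1 differed in swing. It was not called rhythmic in MR knock out (amplitude 0.13, limma adjusted p for the difference = 0.0259), where at ZT12 it read 9.63, 10.1 and 11.7 FPKM, against 5.39, 6.37 and 5.24 FPKM in wild type. At ZT20 the Lig1 values were 12.0, 13.4 and 13.3 FPKM in MR knock out and 12.8, 11.7 and 11.8 FPKM in wild type. For Lig1 the genotypes were thus apart at ZT12 and overlapped at ZT20.

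The other members rhythmic in both genotypes also had earlier estimated peaks in MR knock out, and their differences did not pass. Mcm5 read 13.8, 14.9 and 15.1 FPKM at ZT16 in MR knock out, against 11.1, 10.7 and 11.2 FPKM in wild type, with a shift of -2.76 ± 0.77 h (limma adjusted p = 0.141). For Cdc6 the shift was -2.78 ± 0.68 h (adjusted p = 0.0564), for Cdt1 -3.15 ± 0.87 h (adjusted p = 0.0683) and for Pole -3.48 ± 0.87 h (adjusted p = 0.11). Pcna, Pola1, Ccne1, Rrm2 and Uhrf1 had shifts of -2.0, -2.38, -2.18, -2.57 and -2.18 h. Rfc3, Tyms and Chaf1b were not rhythmic in MR knock out, and Rfc2, rhythmic in neither genotype, had estimated peaks with no useful precision (ZT8.91 ± 8.56 h in MR knock out, ZT23.1 ± 3.23 h in wild type). Slbp had nearly the same estimated peak in both genotypes, ZT20.6 in MR knock out and ZT21.5 in wild type.

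The count of 6 moves with single libraries and with the fit. Without replicate 1 of MR knock out at ZT12, 18 members passed, and without replicates 1, 2 or 3 at all times 8, 0 and 0 did. It was 18 with the length slope as a covariate, 11 with quantile normalization, 2 with a cosine fit, 0 on deposited values and 35 with array weights, which called 6093 of all 11377 genes. The direction of the estimated shifts was the same in each alternative run, with 31 of 31 members earlier and a median shift between -3.73 and -2.18 h, apart from a stricter filter that left 21 members, all 21 of them earlier. Some runs could not change the estimates in this balanced design: no filter, a replicate block, a cosine fit and libraries compared alone each gave -2.38 h. All runs share libraries and use members picked by the reported fit, so they are not separate evidence for an earlier peak.

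**Figure D3:**
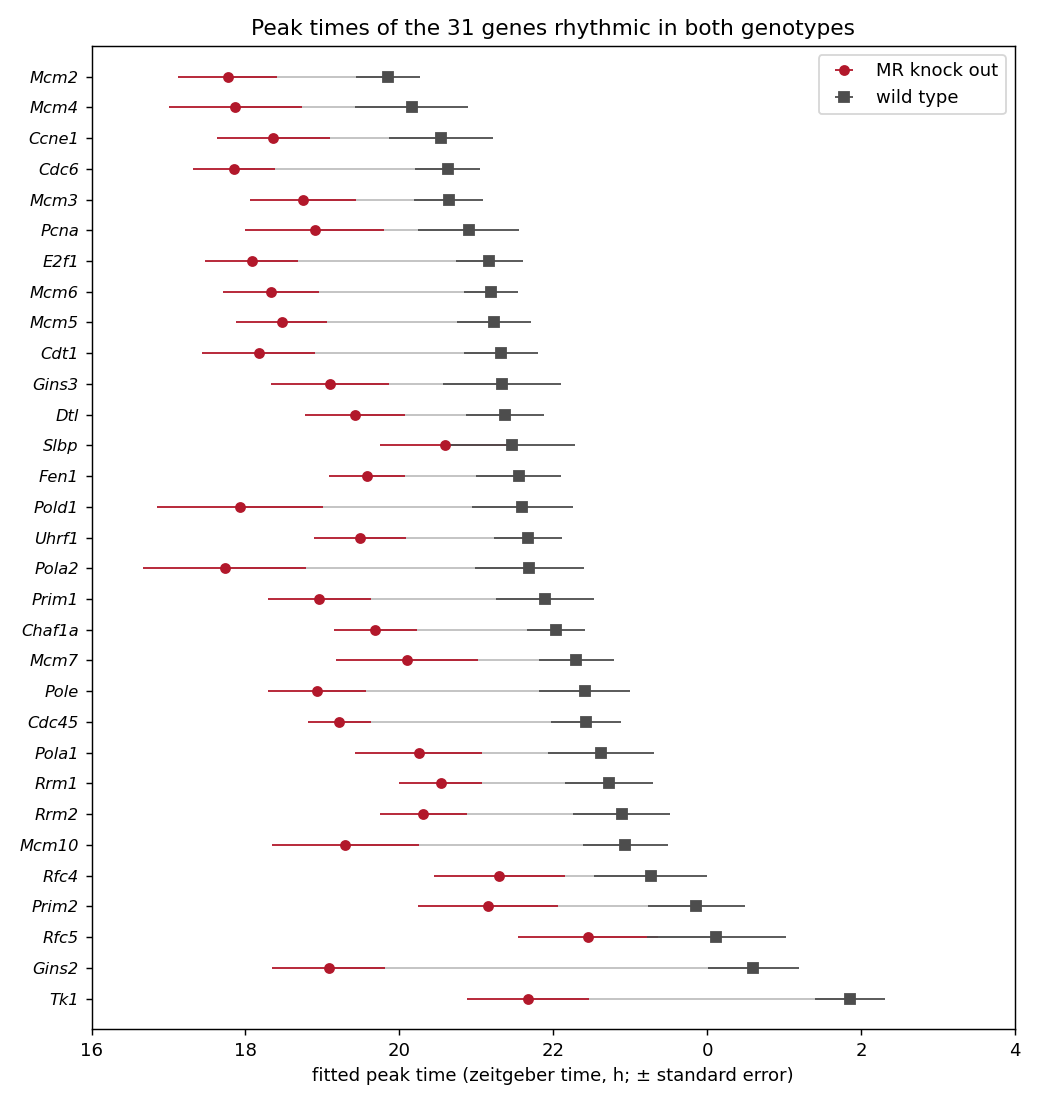
Fitted peak time (x axis, zeitgeber time in h, bars ± SE) of the 31 members rhythmic in both genotypes (y axis), with red circles for MR knock out and grey squares for wild type. Each red circle lies left of its grey square, by 0.87 h for Slbp and up to 5.53 h for Gins2.

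Mitosis genes, other replication genes and other E2F targets had earlier estimated peaks in MR knock out too, and G1 regulators did not as a list. All 21 mitosis genes rhythmic in both genotypes were earlier, with a median of -3.95 h, and 15 of 25 passed the test of the difference. Ccnb1, the mitotic cyclin B, peaked at ZT0.652 in MR knock out and ZT5.31 in wild type, and Plk1, a mitotic kinase, at ZT0.0899 and ZT3.94. Of other replication genes 1 of 36 differed (Chtf18, which belongs to an alternative clamp loader, limma adjusted p = 0.0149), with 16 of 16 earlier, and of other E2F targets 6 of 24, with 19 of 19 earlier. Of G1 regulators and inhibitors, 2 of the 5 rhythmic in both were earlier (median 0.08 h, from -4.46 to 0.31 h) and 0 of 17 differed. Of core clock genes 13 of 14 were earlier by a median of -0.96 h, and 3 of 15 differed (Ciart, Dbp and Tef). The interval between the mean peaks of S-phase members and mitosis genes was 4.83 h in MR knock out and 5.96 h in wild type.

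Markers of other cells also differed between these genotypes. The summed level of the 5 T cell markers ran from 0.914 to 20.5 FPKM (median 8.27) in MR knock out libraries, against 1.86 to 5.32 FPKM (median 3.57) in wild type. Cd4 was near 0 (mean 0.0452 FPKM), and the 4 detected markers were all rhythmic in MR knock out. The 3 general leukocyte markers summed to 2.09 to 24.4 FPKM in MR knock out and 2.19 to 6.19 FPKM in wild type. The 9 crypt base markers (8 of 9 detected, Olfm4 listed at 0 in 68 libraries) summed to 83.4 to 134 FPKM (median 98.8) in MR knock out and 80.9 to 134 FPKM (median 119) in wild type. The part of these cells in the S-phase results was not tested.

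The average level over the day differed in MR knock out for 22 of 38 members, 16 higher and 6 lower, where 66.0% of all genes differed (24.7% higher, 41.3% lower). The median difference was 0.10 on the log2 scale for members and -0.08 for all genes. Gins1 was 4.87 ± 1.04 FPKM in MR knock out and 2.93 ± 0.81 FPKM in wild type (SD, n = 18 each), a difference of 0.67 ± 0.10 (limma adjusted p = 5.32e-07) that was positive at 6 of 6 times. Rfc2 averaged 34.4 ± 7.93 FPKM in MR knock out and 24.4 ± 5.86 FPKM in wild type. Dut (0.41 ± 0.08) and Lig1 (0.40 ± 0.05) followed, and Ccne1, Tk1 and E2f1 were higher by 0.36, 0.35 and 0.30. Slbp was lower at 6 of 6 times, 15.9 ± 2.60 FPKM in MR knock out and 18.7 ± 2.69 FPKM in wild type (-0.23 ± 0.05, adjusted p = 0.000177). The ranges over 18 libraries overlapped for all members.

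The lower calls other than Slbp were Mcm4 (-0.30 ± 0.12), Pola1 (-0.29 ± 0.11), Dtl (-0.23 ± 0.09), Pold1 (-0.21 ± 0.07) and Pole (-0.18 ± 0.08). The members called lower had a median transcript length of 4141 bases, against 2853 bases for those called higher. Lengths overlapped between these groups: Pold1, called lower, has 3496 bases and Chaf1a, called higher, has 7698 bases. Over the 38 members the Spearman correlation of length with the level difference was -0.34. With the length slope of each library as a covariate, Mcm4, Pola1, Dtl and Pole turned positive (0.15, 0.13, 0.06 and 0.04) and the split became 19 higher and 1 lower. On the deposited values without rescaling, which put the all-gene median at -0.24, the split was 2 higher and 6 lower. Without replicate 1 at every time it was 16 higher and 1 lower, and without replicate 2 at every time 14 higher and 1 lower. Among lists outside the members, mitosis genes had 10 of 25 higher and 0 lower, and G1 regulators had 5 of 17 higher, such as the inhibitor Cdkn1a (0.47), and 7 lower, such as Ccnd2 (-0.70).

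In Bmal1 knock out colon the S-phase genes varied over the day, with a timing relative to wild type that depends on the scaling. This comparison uses the same wild type libraries as that for MR knock out. By the F test 32 of 38 members were rhythmic, where 56.7% of all genes were, at a median amplitude of 0.29 in Bmal1 knock out and 0.45 in wild type. Of 28 members rhythmic in both, 15 had an earlier and 13 a later estimated peak in Bmal1 knock out (median shift -0.22 h). On the deposited values without rescaling 0 of 28 were earlier (median 4.12 h, from 1.23 to 5.99 h). The rhythm differed for 23 of 38 (background 31.2%), 18 with a lower and 5 with a higher amplitude in Bmal1 knock out. These numbers lean on the 9 low-factor libraries of this genotype, which fall at ZT0, ZT12, ZT16 and ZT20: with all low-factor libraries left out and a cosine fit, 8 members were rhythmic and 1, Cdt1, differed from wild type (adjusted p = 0.0461).

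Several helicase genes had a lower amplitude in Bmal1 knock out with all libraries. Mcm5 read 11.4, 9.5 and 8.34 FPKM at ZT20 in Bmal1 knock out, against 15.0, 14.0 and 14.4 FPKM in wild type, and at ZT12 6.97, 8.61 and 6.60 FPKM in Bmal1 knock out, against 5.98, 6.24 and 6.12 FPKM in wild type. Bmal1 knock out libraries were below the wild type ones at its peak and above them at its low. The Mcm5 amplitude was 0.24 in Bmal1 knock out and 0.59 in wild type (limma adjusted p = 0.00371). With the low-factor libraries left out its Bmal1 knock out amplitude was 0.39 ± 0.19, and the difference did not pass (adjusted p = 0.0644). Amplitudes were also lower in Bmal1 knock out for Mcm4, with the largest difference (0.74 on the log2 scale as the distance between the fitted waves), Mcm2 (-0.41 ± 0.09), Cdc6, Cdt1, Pola1, Pcna, Uhrf1 and Slbp, all past the threshold. The Mcm4 amplitude was 0.18 in Bmal1 knock out and 0.64 in wild type. Leaving out the low-factor libraries put the Bmal1 knock out value at 0.56 ± 0.32 (adjusted p for the difference = 0.0817). Slbp was close to flat at 0.05 in Bmal1 knock out and 0.23 in wild type, and at ZT0 it read 12.5, 13.9 and 15.4 FPKM in Bmal1 knock out, against 23.1, 21.2 and 22.2 FPKM in wild type. Gins2, Pole, Rfc3, Rrm2 and Tk1 did not pass (adjusted p from 0.167 to 0.8).

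The 5 members with a larger swing in Bmal1 knock out were Prim1, the small primase subunit, Pold1, the catalytic subunit of lagging-strand polymerase delta, Rfc2, Tyms and Chaf1b. Chaf1b read 16.9, 15.2 and 19.6 FPKM at ZT20 in Bmal1 knock out, against 8.64, 7.39 and 6.98 FPKM in wild type, and at ZT4 6.44, 5.43 and 7.29 FPKM in Bmal1 knock out, against 5.23, 5.57 and 4.35 FPKM in wild type. Rfc2 was at 61.1, 60.1 and 68.7 FPKM at ZT20 in Bmal1 knock out, against 27.8, 25.4 and 22.5 FPKM in wild type, and at ZT4 at 24.8, 26.3 and 26.4 FPKM in Bmal1 knock out, against 27.1, 23.9 and 18.8 FPKM in wild type. Both genes were far above wild type at ZT20 and near it at ZT4, and their fitted peaks in Bmal1 knock out were at ZT19.0 and ZT17.3. The length slope moved in step: the Bmal1 knock out libraries had -0.66, -0.74 and -0.56 at ZT20 and 0.45, 0.43 and 0.12 at ZT4. The part of that in these rhythms was not tested beyond the fit with this slope as a covariate, in which 16 members differed in rhythm.

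Average levels were higher in Bmal1 knock out for 27 members and lower for 2, where 80.3% of all genes differed (31.1% higher, 49.2% lower), with a median of 0.21 for members and -0.13 for all genes. Gins1 was 6.21 ± 1.91 FPKM in Bmal1 knock out and 2.93 ± 0.81 FPKM in wild type (0.95 ± 0.10, limma adjusted p = 8.61e-11). Dut (13.3 ± 4.29 FPKM in Bmal1 knock out, 6.57 ± 1.40 FPKM in wild type), Rfc2 (0.92 ± 0.12) and Chaf1b (0.85 ± 0.08) came next. Lig1 was 17.3 ± 3.40 FPKM in Bmal1 knock out and 9.80 ± 2.52 FPKM in wild type (0.81 ± 0.05, adjusted p = 3.18e-15). All 5 of these were higher at 6 of 6 times. Slbp (-0.25 ± 0.05) and Mcm4 (-0.27 ± 0.12) were lower, though Mcm4 was at 0.48 with the length slope as a covariate. In a cosine fit without the low-factor libraries 17 members were higher and 1 lower, with Gins1 at 1.09, Dut at 1.13 and Lig1 at 0.86. On the deposited values without rescaling, which put the all-gene median at -0.89, 0 were higher and 32 lower, so these directions are relative to the other genes in the scaled libraries.

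**Figure D4:**
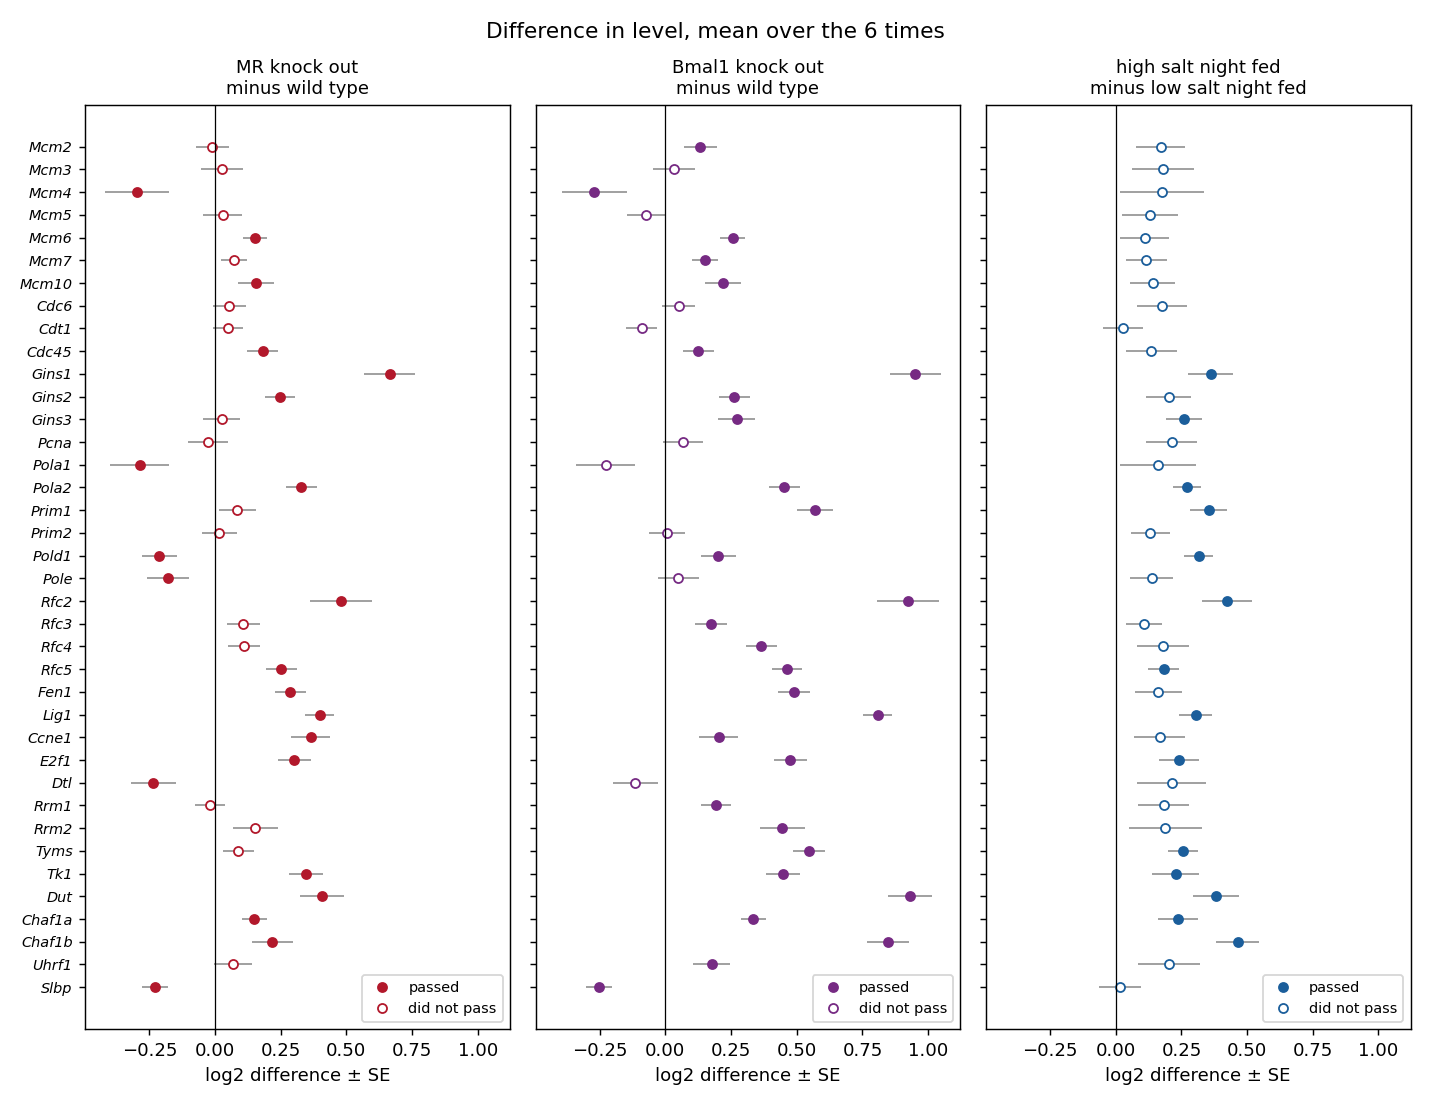
Difference in level averaged over 6 times (x axis, log2, bars ± SE) for each of the 38 tested members (y axis, by role), in panels for MR knock out minus wild type, Bmal1 knock out minus wild type and high salt night fed minus low salt night fed, with filled points for adjusted p under 0.05. Gins1, Rfc2, Dut, Lig1 and Chaf1b lie furthest right in the Bmal1 panel, and Slbp lies left of 0 in both genotype panels.

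In mice fed at night, most of the S-phase genes had a daily wave with an average peak late in the dark phase. On high salt 27 of 38 members were rhythmic (background 57.0%), with a mean peak at ZT22.0, and on low salt 23 of 38 (background 22.6%), with a mean peak at ZT21.0. These groups were not tested against the freely fed wild type. On high salt ZT20 had the highest time mean for 24 of the 39 genes, and the lows were spread over ZT8 (15 genes) and ZT12 (14 genes). On low salt ZT20 was highest for 27 genes and ZT12 lowest for 32. In the high salt night fed group 5 libraries, 3 at ZT8 and 2 at ZT12, had a low scale factor, and without them and with a cosine fit only Tk1 passed.

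In mice fed by day, few members passed the test of a 24 h wave. On high salt 4 of 38 passed (Rfc2, Tyms, Tk1 and Chaf1b; background 31.6%), and on low salt 4 of 38 (Pola1, Tyms, Tk1 and Dut; background 42.2%). At an unadjusted p under 0.05 there were 6 and 9. Median amplitudes of members were 0.16 on high salt and 0.15 on low salt, below those over all genes (0.18 and 0.19). No helicase gene passed in either day fed group. These small counts move with the fit and with single libraries. With array weights 25 members were rhythmic on high salt and 26 on low salt, where 9598 and 8861 of all 11377 genes were. For high salt day fed the count was 2 without replicate 1 at ZT4 or replicates 1 or 2 at ZT16, and 7 without replicate 3 at ZT16. For low salt day fed it was 2 without replicate 2 at ZT4, replicate 3 at ZT8 or replicate 2 at ZT16, 7 without replicate 2 at ZT8, 8 without replicate 2 at ZT20 and 1 without replicate 3 at ZT20. Among the low salt day fed libraries at ZT8, the mean over members was 0.28, -0.46 and 0.21, so replicate 2 stood far below the others.

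**Figure D5:**
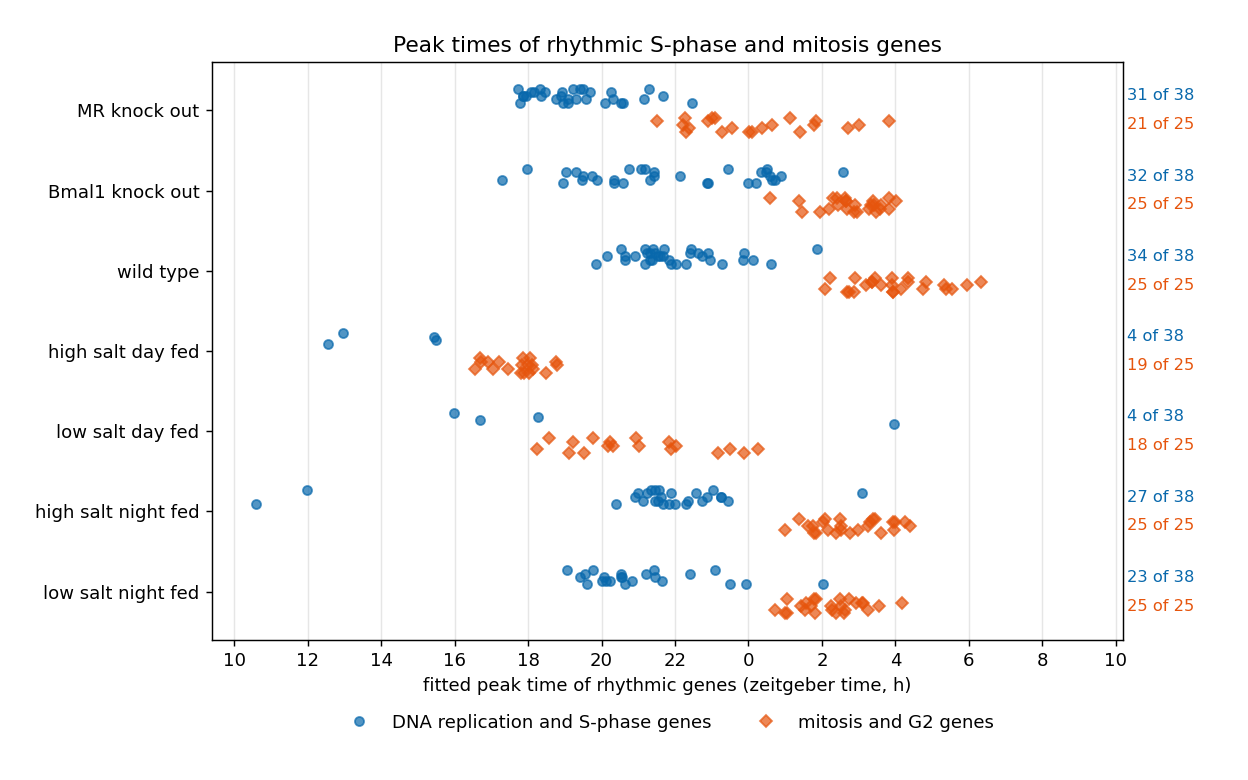
Fitted peak times (x axis, zeitgeber time in h) of rhythmic members (blue circles) and rhythmic mitosis and G2 genes (orange diamonds) in each of 7 conditions (y axis), with the number of each. Member peaks centre on ZT19.3 in MR knock out and ZT22.0 in wild type, and only 4 members have a point in each day fed group, where 19 mitosis genes on high salt and 18 on low salt remain.

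Set directly against night feeding on low salt, day feeding gave a different 24 h wave for 21 of 38 members (background 38.6%), with a lower amplitude in the day fed group for 20 of the 21. Mcm5 read 9.34, 12.8 and 9.67 FPKM at ZT20 in low salt day fed, against 17.7, 14.4 and 14.5 FPKM in low salt night fed, and at ZT4 13.0, 13.2 and 18.4 FPKM in low salt day fed, against 11.3, 6.46 and 9.53 FPKM in low salt night fed. The day fed libraries were all below the night fed ones at ZT20 and all above them at ZT4 (limma adjusted p for the rhythm difference = 0.00245). Cdc6 did likewise at ZT20, with 0.774, 1.08 and 0.822 FPKM in low salt day fed, against 1.83, 1.77 and 1.54 FPKM in low salt night fed (adjusted p = 0.00281). Across the list, time means were highest at ZT4 in low salt day fed for 19 of 39 genes and lowest at ZT0 for 22.

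The largest differences between fitted waves on low salt were in Mcm4 (0.79), Dtl (0.75), Uhrf1 (0.70) and Mcm5 (0.67). Dtl read 1.17, 1.90 and 1.39 FPKM at ZT20 in low salt day fed, against 3.01, 3.10 and 3.19 FPKM in low salt night fed. E2f1 (limma adjusted p = 0.000947), Cdt1, Cdc45, Pcna, Pole and Slbp also passed. Pola1 went against the rest in amplitude, at 0.43 in low salt day fed and 0.34 in low salt night fed, and its peak was at ZT3.96 in low salt day fed and ZT20.5 in low salt night fed. Gins2, Rfc3, Ccne1, Rrm2, Tyms and Chaf1b did not pass. Tk1 was the only member rhythmic in both groups. It peaked at ZT18.3 in low salt day fed and ZT2.02 in low salt night fed, a shift of -7.74 ± 1.54 h (adjusted p = 0.00387), and at ZT20 read 25.2, 26.3 and 28.2 FPKM in low salt day fed, against 23.0, 14.2 and 18.6 FPKM in low salt night fed, with no overlap. The count of 21 fell to 13 without replicate 3 of low salt night fed at ZT8. Without each replicate number in turn at all times it was between 4 and 29. Members rhythmic in low salt night fed then numbered 2 to 20, against 23 with all libraries. With the length slope as a covariate the count of members that differed was 16. That slope was 0.30, 0.41 and 0.53 at ZT4 and -0.77, -0.15 and -0.81 at ZT20 in low salt day fed.

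The day fed group was then moved by 12 h. This alignment sets times from the meal only if the feeding windows lie 12 h apart, which the labels do not state. After the move 4 of 38 members differed on low salt (background 23.2%): Cdc45, Prim1, Pold1 and Tyms, and 16 had an unadjusted p under 0.05. The distances between waves before and after the move were 0.67 and 0.28 for Mcm5, 0.58 and 0.28 for Cdc6 and 0.53 and 0.20 for E2f1, and 0.45 and 0.48 for Cdc45. The aligned count was 12 without low salt day fed replicate 1 at ZT8, 9 without low salt night fed replicate 2 at ZT0 and 8 without its replicate 3 at ZT12. It was 1 without low salt day fed replicate 2 at ZT8, and 2 without each of 7 other libraries. Those were replicate 2 at ZT0, ZT4 or ZT20 in low salt day fed, and replicate 1 at ZT4 or ZT20 or replicate 3 at ZT16 or ZT20 in low salt night fed.

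On high salt, the wave differed between day and night feeding for 11 of 38 members, no larger a share than over all genes (background 32.5%). The amplitude was lower in the day fed group for 10 of the 11. Tk1 showed the clearest contrast of any member. It read 9.79, 14.3 and 10.6 FPKM at ZT4 in high salt day fed, against 34.6, 24.2 and 35.3 FPKM in high salt night fed, and at ZT16 22.8, 30.8 and 27.2 FPKM in high salt day fed, against 14.6, 11 and 17.2 FPKM in high salt night fed. The groups were apart in opposite directions at these times. Its peak moved by -11.6 ± 1.1 h to ZT15.4 in high salt day fed, against ZT3.1 in high salt night fed (limma adjusted p = 4.55e-06). After alignment by the assumed 12 h the Tk1 waves differed by 0.04 (adjusted p = 0.954). Ccne1 had an amplitude of 0.24 in high salt day fed and 0.62 in high salt night fed (adjusted p = 0.00594), and Mcm5 one of 0.16 and 0.55 (adjusted p = 0.00961). In a cosine fit without the low-factor libraries the high salt night fed amplitudes were 0.38 ± 0.14 for Ccne1 and 0.24 ± 0.16 for Mcm5. Neither gene was then rhythmic in that group (limma adjusted p = 0.154 and 0.546). The count of 11 was also lower in that fit, as given in the closing part. Mcm2, Mcm3, Mcm6, Cdt1, Cdc45, Pcna, Rfc5 and Slbp were the others that passed.

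After alignment 23 of 38 members differed on high salt, a share close to that over all genes (background 57.2%), with Rrm2 (0.89), Ccne1 (0.77), Rfc2 (0.76) and Mcm4 (0.74) the furthest apart. Rfc2 peaked at ZT12.5 in high salt day fed and ZT10.6 in high salt night fed, a shift of 1.94 h on the unaligned clock. The unaligned count of 11 was 18 without high salt night fed replicate 3 at ZT8, 5 without its replicate 1 at ZT8 or without high salt day fed replicate 3 at ZT8, and 7 and 4 without high salt day fed replicates 1 and 2 at ZT20. All 19 mitosis genes that were rhythmic in both high salt groups had an earlier estimated peak in high salt day fed by a median of -9.08 h, and all 18 on low salt were earlier in low salt day fed by a median of -5.61 h. Of clock genes 10 of 13 were earlier in high salt day fed than in high salt night fed (median -2.68 h, from -11.6 to 11.3 h) and 14 of 14 in low salt day fed than in low salt night fed (median -9.57 h). Other replication genes were later in the day fed group on both salts, with 0 of 7 earlier on high salt (median 4.31 h) and 0 of 4 on low salt (median 6.69 h).

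Day feeding changed average levels of few members. On low salt Lig1 was 14.6 ± 1.89 FPKM in low salt day fed and 12.0 ± 2.17 FPKM in low salt night fed (0.29 ± 0.06, limma adjusted p = 0.00541). Chaf1b was 7.74 ± 1.31 FPKM in low salt day fed and 6.33 ± 1.35 FPKM in low salt night fed (0.28 ± 0.08, adjusted p = 0.04). These were the 2 of 38 that passed, both higher (background 3.33%, of which 1.04% higher and 2.29% lower), while 11 had an unadjusted p under 0.05, and leaving out any of 21 of the 36 libraries ended the call for Chaf1b. On high salt Rfc2 was lower, 30.5 ± 8.59 FPKM in high salt day fed and 37.0 ± 10.3 FPKM in high salt night fed (-0.28 ± 0.10, adjusted p = 0.0225), and was the only member called, where 27.6% of genes were. It was not called without high salt day fed replicate 1 at ZT4 or replicate 3 at ZT16, and the count of members was 2 to 4 without high salt day fed replicate 2 at ZT4 or replicate 1 at ZT16, or high salt night fed replicate 2 at ZT4, replicates 2 or 3 at ZT8 or replicate 1 at ZT12. The 4 detected T cell markers were lower in low salt day fed than in low salt night fed (median -0.57) and higher in high salt day fed than in high salt night fed (median 0.91), and their part was not tested.

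High salt at night went with higher average levels of part of the list. The level was higher in high salt night fed than in low salt night fed for 14 of 38 members and lower for 0, where 35.0% of all genes differed, 15.4% higher and 19.6% lower (limma, median 0.18 for members and -0.02 for all genes; 16 members had an unadjusted p under 0.05). Chaf1b was 8.87 ± 1.81 FPKM in high salt night fed and 6.33 ± 1.35 FPKM in low salt night fed (0.46 ± 0.08, adjusted p = 2.09e-05) and higher at 6 of 6 times. Rfc2 (0.43 ± 0.10), Dut (0.38 ± 0.09) and Gins1 (0.36 ± 0.09) followed, and the others were Prim1, Pold1, Lig1, Pola2, Gins3, Tyms, E2f1, Chaf1a, Tk1 and Rfc5. No member of the MCM ring passed in this fit, whereas with the length slope as a covariate Mcm2 (0.29, adjusted p = 0.00495), Mcm3 (0.31, adjusted p = 0.0237), Mcm4 (0.44, adjusted p = 0.00152) and Mcm5 (0.26, adjusted p = 0.0278) did, and without the low-factor libraries Mcm3 did (0.42, adjusted p = 0.0429). Other replication genes were higher in 12 of 36, mitosis genes in 5 of 25, with 0 lower in either list. T cell markers were lower for 4 of the 4 detected (median -1.23). Sums over all 5 listed were 1.55 to 9.64 FPKM in high salt night fed and 7.08 to 18.6 FPKM in low salt night fed, and the part of these markers was not tested. In a cosine fit without the low-factor libraries 18 members were higher and 0 lower. On the deposited values without rescaling, which put the all-gene median at -0.45, 13 were called and all were lower.

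The night fed groups differed in rhythm for 2 members (background 12.3%). Ccne1 read 0.891, 1.18 and 2.17 FPKM at ZT8 in high salt night fed, against 1.88, 2.1 and 1.94 FPKM in low salt night fed, and 4.95, 3.77 and 4.43 FPKM at ZT20 in high salt night fed, against 3.31, 3.25 and 3.26 FPKM in low salt night fed. High salt libraries were all higher at ZT20 and overlapped the low salt ones at ZT8 (amplitude difference 0.41 ± 0.14, limma adjusted p = 0.0458). Pold1 was highest at ZT12 in high salt night fed, with 8.17, 8.54 and 9.87 FPKM, against 5.67, 5.73 and 4.46 FPKM in low salt night fed. Its peak was at ZT12.0 in high salt night fed and ZT19.4 in low salt night fed, a shift of -7.44 ± 1.3 h (adjusted p = 0.00162). The count was 1 without any of 17 of the 36 libraries and 0 without the low-factor libraries in a cosine fit.

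Between the day fed groups limma called 0 of 38 members for level (background 14.8%, 7.79% higher and 7.05% lower; 7 at an unadjusted p under 0.05) and 0 for rhythm (background 11.3%; 0 at an unadjusted p under 0.05). Array weights, which give noisy libraries less say, called 22 members for level and 22 for rhythm. That setting also called most of all genes rhythmic in both day fed groups, as given above. These counts of 22 are therefore not read as a result about the members. The level differences furthest from 0 among the members with an unadjusted p under 0.05 were Rrm2, 10.3 ± 3.44 FPKM in high salt day fed and 7.99 ± 2.15 FPKM in low salt day fed (0.33 ± 0.14, adjusted p = 0.0997), and Dtl (0.28 ± 0.13, adjusted p = 0.138). Pcna was at 65.2 ± 13.2 FPKM in high salt day fed and 55.4 ± 11.6 FPKM in low salt day fed (adjusted p = 0.09). Without low salt day fed replicate 2 at ZT0 there was 1 level call, and without high salt day fed replicate 1 at ZT16 there were 2. Without low salt day fed replicate 2 at ZT8 there was 1 rhythm call.

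The effect of day feeding on the average level differed between high and low salt for 4 of 38 members, Pold1, Rfc2, Lig1 and Chaf1b, all with a lower effect on high salt (limma, background 19.7%, with 8.75% lower). That is a smaller share than over all genes, and close to the share of all genes with a lower effect. The effect on the 24 h wave differed for Pold1 alone, also a smaller share than over all genes (background 6.21%). Lig1, a DNA ligase, was higher by 0.29 in low salt day fed than in low salt night fed, and its difference between high salt day fed and high salt night fed was -0.04. Without low salt day fed replicate 2 at ZT8 the level count was 7.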

How the data were processed

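Per the labels, polyA RNA from colon was extracted with TRIzol and made into TruSeq stranded mRNA libraries. Per the submitters' processing notes, the authors used TopHat2 2.1.1, Cufflinks 2.2.1 and build mm10. The deposited tables, 1 per condition, hold FPKM. No label states the unit, which was inferred from the use of Cufflinks and from values that are neither whole nor negative. Neither the annotation, nor joint normalisation of the 7 tables, nor the depth per library is given in the sources used here. Counting intervals were therefore not computed. Comparisons between conditions cross tables, while rhythms lie within a table.

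Libraries were rescaled by the median-of-ratios method, using 6966 genes with at least 1 FPKM in all 126 libraries. Values were analysed as log2(rescaled FPKM + 0.5), so fold changes of low genes are understated, and all FPKM in the text are rescaled. Tests covered the 11377 rows whose mean reached 1 in any condition. limma 3.58.1 (R 4.3.3; lmFit, then eBayes, trend and robust set) was fitted with 1 mean per condition and time, to the 54 genotype libraries (36 residual degrees of freedom) and the 72 feeding libraries (48). A level difference is the mean over 6 times. A rhythm is the pair of 24 h cosine and sine contrasts (F test, 2 degrees of freedom). Rhythm differences apply this F test to the contrasts of one condition minus those of another. Adjusted p is Benjamini-Hochberg over 11377 rows at 0.05, 2-sided, and ± is the standard error unless SD is named. Gene coordinates and lengths are from GENCODE vM21 (a length for 96.2% of tested rows), and promoters from RefSeq. Python 3.11.15, pandas 2.3.3 and numpy 2.4.6 were used for tables.

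The fit was tested on simulated data for the MR knock out comparison, with 200 changed genes of each kind among 11377. It recovered 88.5% of level changes, 82.5% of rhythms and 67% of rhythm differences of 0.5 (log2), and 26% of rhythm differences of 0.3. A simulated rhythm difference was a wave present in MR knock out and absent in wild type, not a shift of peak time. The simulated noise had no scale or length effect shared within a library, so these rates need not hold for the libraries here. Replicate libraries differed by a median absolute log2 value of 0.089 to 0.531 (median 0.188), and 0 pairs were identical. Replicate numbers did not pair libraries across groups.

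Members, gene lists and tests were chosen with earlier results of these data known. Genes named are a panel from each role (Mcm5, Cdc6, Cdt1, Cdc45, Gins2, Pcna, Pola1, Pole, Rfc3, Ccne1, Ccne2, E2f1, Rrm2, Tyms, Tk1, Uhrf1, Chaf1b, Slbp), up to 4 members with the largest called level or rhythm difference, and members that go against the others. Further members named beside a count were chosen after their values were seen.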

Additional observations from a re-analysis of the deposited data

Results flagged for a closer look

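In the feeding set the effect of day feeding (day fed minus night fed) on a member's average level differed between high and low salt for 4 of 38 members, by limma's test of the difference of differences (background 19.7%, adjusted over all genes). The share among members is smaller than that over all genes, so the calls are listed by gene and not as a trait of the list. For Chaf1b it was -0.16 on high salt and 0.28 on low salt, a difference of -0.44 ± 0.12 (log2, adjusted p = 0.00605). For Lig1 it was -0.04 on high salt and 0.29 on low salt, a difference of -0.33 ± 0.09 (adjusted p = 0.00734). For Rfc2 it was -0.28 on high salt and 0.19 on low salt, a difference of -0.47 ± 0.14 (adjusted p = 0.0124). For Pold1 it was -0.12 on high salt and 0.10 on low salt, a difference of -0.22 ± 0.08 (adjusted p = 0.0396). All 4 were also higher in high salt night fed than in low salt night fed, which uses the same libraries. Without low salt day fed replicate 2 at ZT8 the count was 7, and it was 1 when low-factor libraries were left out.

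The effect of day feeding on the 24 h wave differed by salt for Pold1 alone (distance between the effects 0.50 ± 0.11, log2, limma adjusted p = 0.00937, background 6.21%), and 2 members had an unadjusted p under 0.05. Here too the share among members is smaller than that over all genes. Pold1 peaked at ZT14.1 in high salt day fed, ZT12.3 in low salt day fed, ZT12.0 in high salt night fed and ZT19.4 in low salt night fed. With low-factor libraries left out 0 members passed.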

How the results depend on the processing

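Counts of members past the threshold depend on single libraries and on scaling, and depth per library was not known. A cosine and sine fit in place of time means gave 2 members differing in rhythm in MR knock out, 1 in level and 2 in aligned rhythm between the low salt feeding times, 7 in rhythm between the high salt feeding times and 1 in rhythm between the night fed groups. The same fit without low-factor libraries gave 8 rhythmic in Bmal1 knock out and 1 in high salt night fed, 2 differing in rhythm in MR knock out, 1 in rhythm and 18 in level in Bmal1 knock out. It gave 1 level and 2 aligned calls on low salt, 1 rhythm, 0 level and 4 aligned calls on high salt, 0 rhythm calls between the night fed groups, and 1 level and 0 rhythm calls for the interaction. The length slope as covariate gave 18 rhythm calls in MR knock out, 2, 1 and 17 rhythmic in high salt day, low salt day and high salt night fed, 5 level and 8 aligned calls on low salt, 7 aligned on high salt, and 26 and 3 level calls for salt at night and by day. Libraries compared alone gave 1 and 7 rhythmic in high and low salt day fed, 8 aligned calls on low salt, 7 rhythm calls on high salt and 1 for salt at night. Array weights gave 35 rhythm calls in MR knock out, 25 and 26 rhythmic in high and low salt day fed, 34 rhythm, 18 level and 19 aligned calls on low salt, 31 and 21 rhythm and level calls on high salt, 15 rhythm calls for salt at night, 22 and 22 by day, and 11 and 10 for the interaction. A mean of at least 5 gave 1 rhythm call for salt at night. No filter gave 1 level and 2 aligned calls on low salt and 1 rhythm call for salt at night. Quantile normalization gave 11 rhythm calls in MR knock out, 7 rhythmic in low salt day fed, 2 level calls on high salt, 1 rhythm call for salt by day and 0 for the interaction. Values as deposited gave 20 rhythmic in wild type and 5 in low salt night fed, 0 rhythm and 8 level calls in MR knock out, 4 rhythm and 0 level calls on low salt, 38 rhythm, 37 level and 37 aligned calls on high salt, 29 rhythm calls for salt at night, 1 by day, and 8 level and 10 rhythm calls for the interaction. The cause of these changes was not tested.

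Leaving out a replicate number at all times, and leaving out single libraries, moved the counts as follows. Rhythmic members numbered 14 to 29 and 29 to 32 in MR knock out, 17 to 28 and 27 to 35 in Bmal1 knock out, 31 to 32 and 33 to 36 in wild type, 0 to 5 and 2 to 7 in high salt day fed, 0 to 1 and 1 to 8 in low salt day fed, 14 to 24 and 22 to 30 in high salt night fed, and 2 to 20 and 16 to 24 in low salt night fed. Between genotypes, rhythm calls numbered 0 to 8 and 4 to 18 in MR knock out and 2 to 19 and 17 to 24 in Bmal1 knock out, and level calls 15 to 18 and 19 to 22 in MR knock out and 21 to 26 and 26 to 30 in Bmal1 knock out. Between feeding times, rhythm, level and aligned calls on low salt numbered 4 to 29 and 13 to 28, 0 to 1 and 1 to 2, and 0 to 0 and 1 to 12, and on high salt 3 to 12 and 4 to 18, 0 to 5 and 0 to 4, and 11 to 18 and 16 to 27. For salt, rhythm and level calls numbered 0 to 1 and 1 to 2, and 8 to 16 and 13 to 16, at night, and 0 to 0 and 0 to 1, and 0 to 0 and 0 to 2, by day. For the interaction, level calls numbered 0 to 11 and 3 to 7, and rhythm calls 0 to 1 and 1 to 1.

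For the 226 results on named genes, alternatives gave 2850 values on the same side of the threshold. A further 243 lost a call, 179 gained one and 44 turned round with a call in the main or the alternative fit. A turn of direction without a call in either fit is counted among the 2850. With the length slope as covariate the level difference in MR knock out turned to 0.15 for Mcm4, 0.13 for Pola1, 0.043 for Pole and 0.062 for Dtl, and in Bmal1 knock out to 0.48 for Mcm4, 0.33 for Mcm5 and 0.47 for Pola1. The other 37 of the 44 turned on deposited values without rescaling, which also move the all-gene median. Level differences in Bmal1 knock out were then -0.49 for Cdc6, -0.59 for Cdc45, -0.55 for Gins2, -0.82 for Pcna, -0.56 for Pole, -0.66 for Rfc3, -0.48 for Ccne1, -0.25 for E2f1, -0.39 for Rrm2, -0.30 for Tyms, -0.42 for Tk1 and -0.66 for Uhrf1. Between high salt feeding times they were 0.16 for Rfc2, 0.41 for Rfc3, 0.32 for E2f1, 0.30 for Tyms, 0.26 for Chaf1b and 0.40 for Slbp, and for salt at night -0.33 for Mcm5, -0.42 for Cdt1, -0.072 for Gins1, -0.26 for Gins2, -0.064 for Rfc2, -0.36 for Rfc3, -0.16 for E2f1, -0.21 for Tyms, -0.25 for Tk1, -0.085 for Dut and -0.46 for Slbp. The direction of a rhythm difference turned, at a size of 0.25 for Rfc2, 0.55 for Tyms, 0.64 for Tk1 and 0.32 for Chaf1b in Bmal1 knock out, and of 0.26 for Pold1, 0.52 for Tyms, 0.60 for Tk1 and 0.36 for Chaf1b for salt at night.

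Replicate numbers do not pair the libraries (median correlation of deviations -0.002 for the same number and 0.003 for other numbers, and 44 of 126 libraries correlated best with their own number). With a replicate block 7 members differed in rhythm in MR knock out, 22 in level, 23 and 29 in Bmal1 knock out, 22 in rhythm on low salt and 12 on high salt, all within 1.5 times the counts without it.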
